A study of Mus musculus with 22 samples.

Results

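Alternative activation describes the state that macrophages enter under type 2 immunity, and 9 genes linked to it were followed: Il33, Il1rl1, Retnla, Chil3, Arg1, Mgl2, Clec10a, Ear2 and Siglecf. They were picked by symbol, 9 of the 52526 distinct symbols in the deposited files, with earlier results of these data known. Tissue came from 22 female C57BL/6J mice aged 7 to 8 weeks, each with EO771 cells, a mammary cancer line of the same strain that had been made to express firefly luciferase, engrafted in the fourth left mammary fat pad. Hub control mice had only the hub of a running wheel in the cage, and wheel mice had the wheel as well, for 2 weeks before engraftment and until the tissue was taken 24 hours after it. All mice received intravenous liposomes 24 hours before engraftment and again at engraftment, which held PBS or clodronate, a drug that kills phagocytes after they ingest the liposomes. The groups were hub control with PBS liposomes (n = 6), wheel with PBS liposomes (n = 6), hub control with clodronate liposomes (n = 5) and wheel with clodronate liposomes (n = 5). The samples were whole pieces of mammary tissue, so the genes were read in all cells of the fat pad together with the engrafted cells.

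Type 2 immunity is the response set off by tissue damage, parasites and allergens. Epithelial and stromal cells release alarmins, IL-33 among them, which act on innate lymphoid cells, T helper 2 cells, mast cells and eosinophils. The cytokines IL-4 and IL-13 from these cells activate the transcription factor STAT6 in macrophages and turn on a set of effector genes. In fat, this axis is known for keeping eosinophils and alternatively activated macrophages in place. Il33 encodes the alarmin and Il1rl1 its receptor ST2. Retnla (RELMα or FIZZ1), Chil3 (YM1) and Arg1 (arginase 1) are the usual effector genes of the macrophage state in mice. Mgl2 (CD301b) and Clec10a (CD301a) encode paired galactose-binding lectins of macrophages and dendritic cells. Ear2 encodes an eosinophil-associated ribonuclease, and Siglecf a surface lectin that marks eosinophils.

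The members lie on separate chromosomes, except for the paired lectins. In the GRCm38.p6 assembly, Retnla lies at chr16:48842609-48844461, Chil3 at chr3:106147554-106167564, Arg1 at chr10:24915207-24927470, Il33 at chr19:29925113-29960718, Il1rl1 at chr1:40404864-40465418, Ear2 at chr14:44102654-44103531 and Siglecf at chr7:43351341-43359475. Mgl2 at chr11:70130125-70137542 and Clec10a at chr11:70166623-70170836 are neighbours with 29080 bases between them. RefSeq promoter windows of GRCm38.p6 were matched for 7 of the 9 genes, all except Arg1 and Clec10a. The 250 bases before the annotated start are given for Retnla, Chil3 and Mgl2. Retnla had the highest level of the members, Chil3 was read in few mice, and Mgl2 had the lowest p-value by limma. Capitals mark TTC and GAA with 4 bases of any kind between them, the form that STAT6 prefers, the same with 3 bases between them, which STAT factors in general bind, and the TATA box TATAAA, each searched on both strands.
Retnla, chr16:48842359-48842608, plus strand: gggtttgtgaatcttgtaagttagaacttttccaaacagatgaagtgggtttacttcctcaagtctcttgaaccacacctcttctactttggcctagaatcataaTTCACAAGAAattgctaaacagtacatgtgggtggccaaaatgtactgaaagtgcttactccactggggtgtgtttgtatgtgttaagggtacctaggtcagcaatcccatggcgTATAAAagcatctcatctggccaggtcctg
Chil3, chr3:106167565-106167814, minus strand: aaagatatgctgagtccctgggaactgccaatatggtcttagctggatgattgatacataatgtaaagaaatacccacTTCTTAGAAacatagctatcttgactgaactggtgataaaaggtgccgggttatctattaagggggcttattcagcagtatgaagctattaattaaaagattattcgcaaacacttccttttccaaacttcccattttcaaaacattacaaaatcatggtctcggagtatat
Mgl2, chr11:70130107-70130356, plus strand: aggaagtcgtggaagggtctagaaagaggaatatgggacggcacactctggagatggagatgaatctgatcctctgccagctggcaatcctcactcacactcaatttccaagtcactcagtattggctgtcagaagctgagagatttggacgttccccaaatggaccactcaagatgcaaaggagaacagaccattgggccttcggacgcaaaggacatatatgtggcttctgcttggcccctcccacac
The Retnla window held the form with 4 bases between, with its first base 145 bases before the start, and a TATA box 30 bases before it. The Chil3 window held only the form with 3 bases between, 172 bases before the start, and the Mgl2 window held none of the 3 motifs. The windows of Retnla and Chil3 end where the annotated gene begins, but that of Mgl2 precedes an internal start, with 232 of its 250 bases inside the gene and 18 before it. Of the 2 windows of Il33, 1 held the form with 4 bases between, 36 bases before the start, in the stretch ctgccaagTTCTGGGGAAtaaaaagc at chr19:29925069-29925094. The same window held TATAAA 203 bases before the start, and the other Il33 window held only TATAAA, 29 bases before its start. The windows of Il1rl1, Ear2 and Siglecf held none of the 3 motifs. Among all 32851 windows of this length, 5.85% held the form with 4 bases between, 7.02% that with 3 and 12.37% held TATAAA. These matches describe letters in the windows and say nothing about binding in these samples.

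Levels were read in CPM, read counts scaled to the library total, from libraries that count transcript 3′ ends, so a level is not divided by gene length. Every deposited value below 1 CPM stood at 1 CPM, called the floor here, which in libraries of 13256467 to 20484578 reads covers any gene with 13 reads or fewer in the shallowest and 20 in the deepest. Each mouse gave 1 library, so p-values measure the spread between mice. The mammary identity of the tissue was checked by adipocyte genes (mean log2(CPM + 1) of 9 genes, with group medians from 9.59 to 10.2) and epithelial keratin and adhesion genes (8 genes, group medians from 5.97 to 6.49), although the keratins Krt5 and Krt14 of that list are also made in the epidermis. The samples differed in other content. Lymphocyte genes stood apart in 5 samples, with a score above 3 for 12 genes (mean log2(CPM + 1)). They were 3 of the 5 wheel mice with clodronate liposomes and 1 mouse in each PBS group, and they are called lymphocyte-rich below. Genes of the upper epidermis also varied widely, with Krt10, a keratin of differentiated skin, between 7.49 and 4443 CPM.

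Retnla was the most abundant of the 9 genes, with a mean of 211 CPM over the 22 mice, above 98.2% of the 15138 genes tested. Clec10a followed with 39.1 CPM, then Mgl2 with 15.8 CPM, Arg1 with 8.88 CPM, Il33 with 7.78 CPM, Il1rl1 with 5.22 CPM, Chil3 with 2.55 CPM and Ear2 with 1.83 CPM. Siglecf was at the floor in 21 mice. The mean of Chil3 rests on 3 mice, and by the median over mice Ear2 (1.46 CPM) was above Chil3 (1 CPM). The ranges of Retnla, Clec10a, Mgl2, Arg1, Il33 and Il1rl1 each overlapped with that of the next gene, so the full spreads of neighbours in that part of the order were not separate. Genes had to be above the floor in at least 5 mice to be tested, and 7 of the 9 members were. Chil3 was above the floor in 4 mice and Siglecf in 1 mouse, so neither was tested across all genes.

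**Figure D1:**
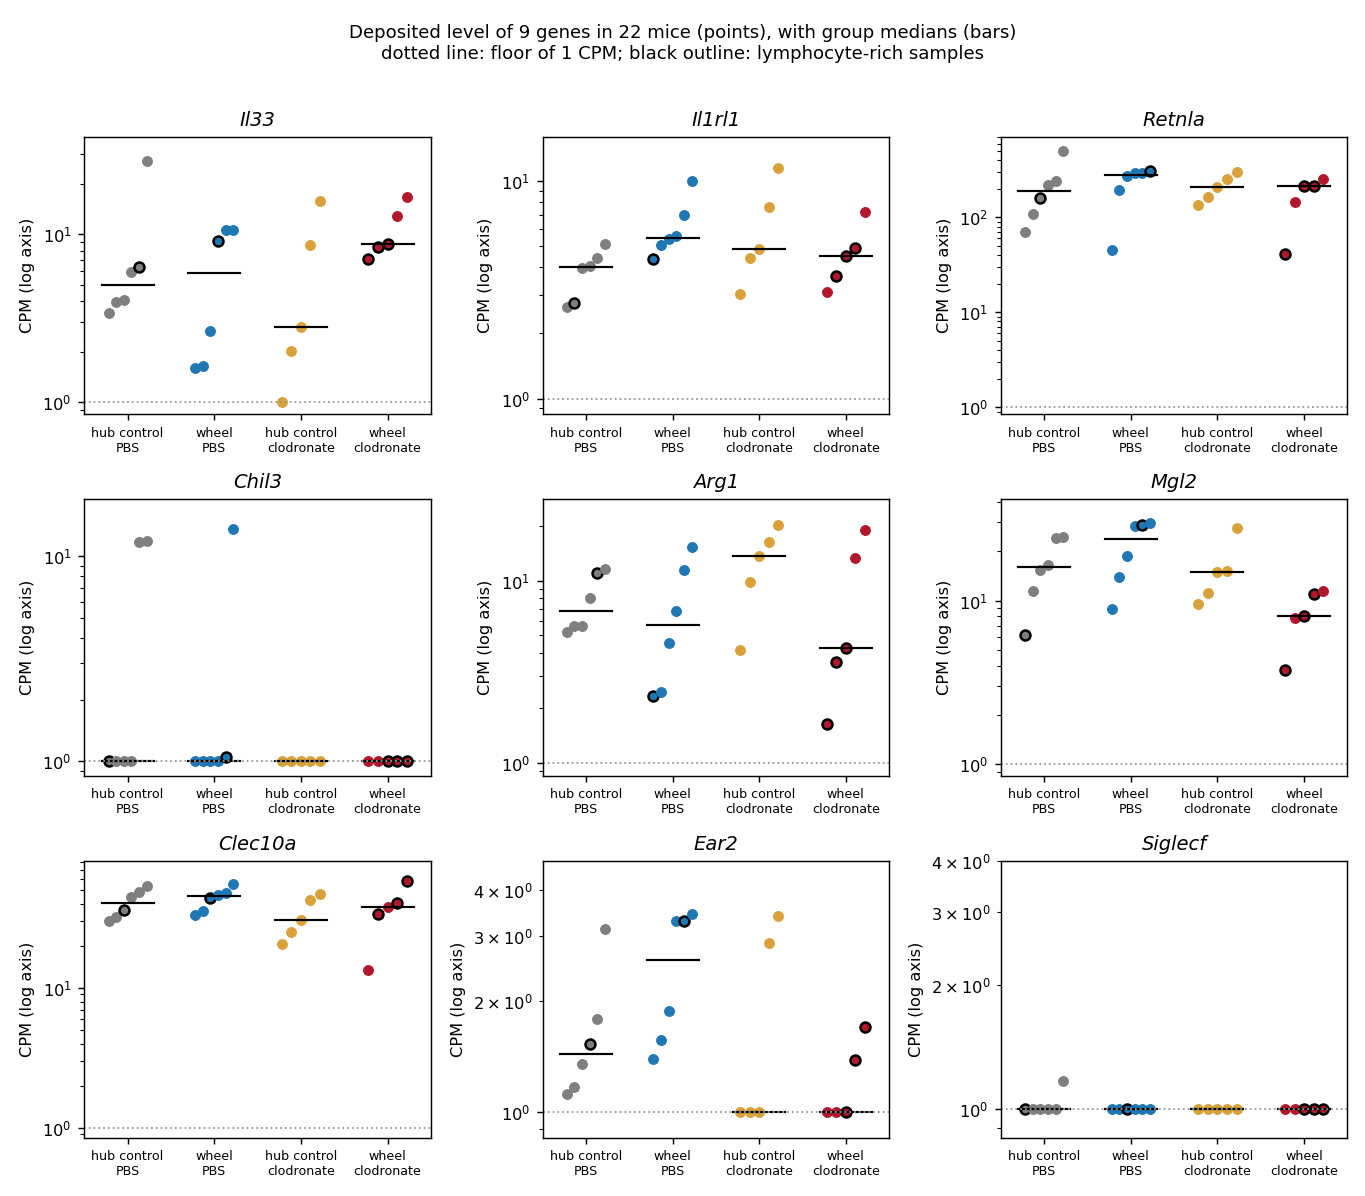
CPM of the 9 genes in each of the 22 mice on log axes, by group, with a bar at each group median and a dotted line at the floor of 1 CPM; black outlines mark the 5 lymphocyte-rich samples. Mgl2 in wheel mice with clodronate liposomes lay between 3.77 and 11.4 CPM, Chil3 was 11.7 to 13.6 CPM in 3 mice with PBS liposomes, and Ear2 was at the floor in 6 of the 10 mice with clodronate liposomes.

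None of the 7 tested genes passed an adjusted p of 0.05 in any of 7 comparisons by limma (Benjamini-Hochberg over 15138 genes), and none did under any alternative, where the lowest adjusted p was 0.1004. The background was low too. The percentage of all genes called was 0% for wheel against hub control with PBS liposomes, 0.00661% for the same comparison with clodronate liposomes, 0% for clodronate against PBS in hub control mice, 0.00661% in wheel mice and 0.205% over both activities, and 0% for the wheel over both liposomes and for the interaction. At an unadjusted p under 0.05 the members had 0 of 7 for the wheel with PBS liposomes (4.91% of all genes), 1 of 7 for the wheel with clodronate liposomes (10.4%), 0 of 7 for clodronate in hub control mice (6.99%), 2 of 7 for clodronate in wheel mice (11.6%) and 1 of 7 for clodronate over both activities (10.4%). For the interaction the count was 1 of 7, against 7.58% of all genes, and for the wheel over both liposomes 0 of 7, against 8.09%. An exact two-sided permutation of the mice in each pair of groups gave an unadjusted p under 0.05 in 4 of 28 tests of members. These were 1 of 7 for the wheel with PBS liposomes (Il1rl1, against 5.09% of all genes), 1 of 7 for the wheel with clodronate liposomes (Mgl2, 6.55%), 0 of 7 for clodronate in hub control mice (7%) and 2 of 7 for clodronate in wheel mice (Mgl2 and Ear2, 8.61%). In tissue samples of this kind, fewer cells of a type and less RNA per cell cannot be told apart. No tested member had groups that did not overlap, where 0.264% of all genes had such groups for the wheel with PBS liposomes, 1.27% for the wheel with clodronate liposomes, 0.634% for clodronate in hub control mice and 1.26% for clodronate in wheel mice. The median change of the 7 genes was 0.15 for the wheel with PBS liposomes (all genes -0.08) and -0.29 with clodronate liposomes (all genes 0.00), in log2(CPM + 1). For clodronate it was 0.04 in hub control mice (all genes -0.10) and -0.36 in wheel mice (all genes 0.00).

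**Figure D2:**
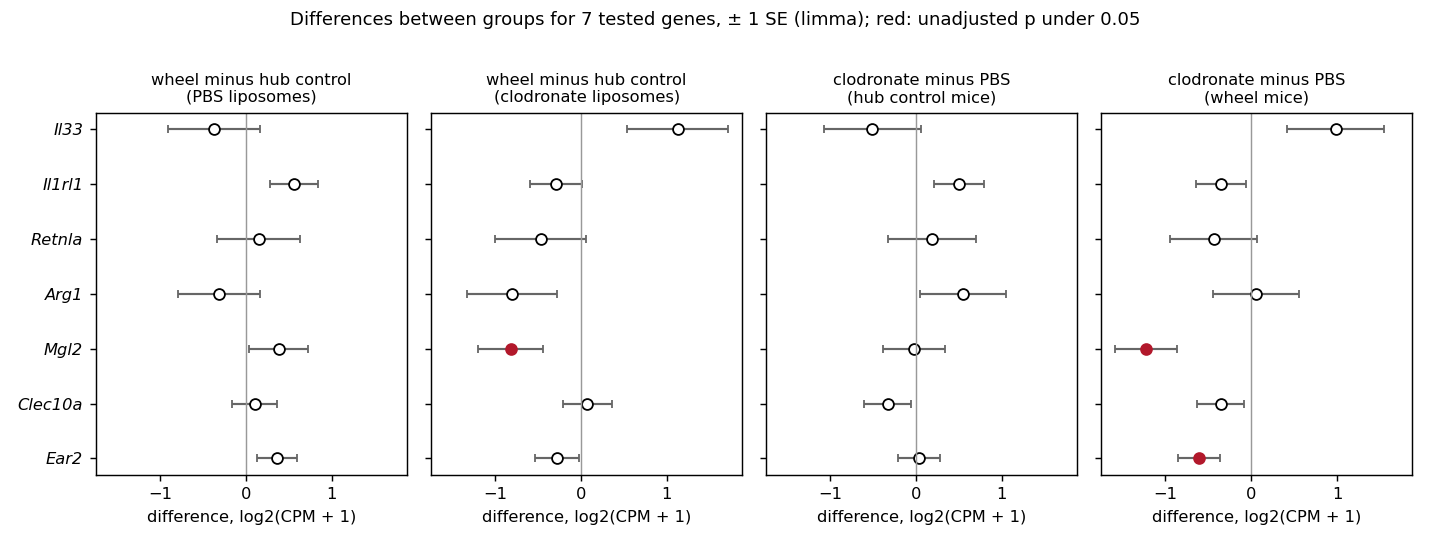
Differences in log2(CPM + 1) for the 7 tested genes in the 4 comparisons of single groups, with 1 SE from limma on each side; filled red points have an unadjusted p under 0.05 and open points do not. The red points are Mgl2 (-0.82) for the wheel with clodronate liposomes, and Mgl2 (-1.22) and Ear2 (-0.61) for clodronate in wheel mice.

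Il33 had the widest spread of the tested members, with an SD within groups of 1.00 in log2(CPM + 1). It ranged from 3.40 to 27.2 CPM in hub control mice (median 4.99) and from 1.59 to 10.6 CPM in wheel mice (median 5.90) with PBS liposomes. With clodronate liposomes the hub control mice had 1, 2.00, 2.79, 8.60 and 15.8 CPM and the wheel mice 7.11, 8.45, 8.74, 12.9 and 16.6 CPM. All 5 wheel mice were above the 3 lower hub control mice in this arm, and the other 2 hub control mice lay within the range of the wheel mice. The difference was 1.13 (SE 0.59, unadjusted p = 0.068, adjusted p = 0.54 by limma, exact permutation p = 0.11). With PBS liposomes it was -0.37 (SE 0.54, adjusted p = 0.99), and the interaction gave 1.49 (SE 0.80, adjusted p = 0.69). Clodronate against PBS gave 0.99 in wheel mice (SE 0.56, adjusted p = 0.53) and -0.51 in hub control mice (SE 0.56, adjusted p = 0.88).

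Il1rl1, the receptor for IL-33, was low and even. It ranged from 2.63 to 5.11 CPM in hub control mice (median 4.02) and from 4.36 to 9.97 CPM in wheel mice (median 5.48) with PBS liposomes. In this arm 4 of the 6 wheel mice had 5.56 CPM or less, close to the highest hub control mouse, and the other 2 had 6.94 and 9.97 CPM. The difference was 0.57 (SE 0.28, unadjusted p = 0.054, adjusted p = 0.99 by limma), with an exact permutation p of 0.011. With clodronate liposomes the values were 3.03, 4.44, 4.88, 7.60 and 11.4 CPM in hub control mice and 3.07, 3.64, 4.53, 4.92 and 7.16 CPM in wheel mice, a difference of -0.29 (SE 0.30, adjusted p = 0.82). The interaction was -0.85 (SE 0.41, unadjusted p = 0.050, adjusted p = 0.66). The co-receptor Il1rap was read at a mean of 4.60 CPM.

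Retnla, whose secreted product is made by alternatively activated macrophages and by fat tissue, spanned more than an order of magnitude. With PBS liposomes it ranged from 71.0 to 506 CPM in hub control mice (median 189) and from 45.1 to 309 CPM in wheel mice (median 283). With clodronate liposomes the values were 135, 162, 211, 256 and 299.9 CPM in hub control mice and 40.7, 146, 212, 213 and 256 CPM in wheel mice. Every group held mice near 200 CPM or above, and the 2 lowest values came from 1 wheel mouse of each liposome arm. No difference was larger than the spread between mice: wheel against hub gave 0.15 with PBS liposomes (SE 0.48) and -0.47 with clodronate liposomes (SE 0.53), and clodronate against PBS gave 0.19 in hub control mice (SE 0.51) and -0.43 in wheel mice (SE 0.51). The adjusted p by limma was 0.81 or more in each of these. Within groups the SD of Retnla was 0.94 in log2(CPM + 1), larger than that of 93.7% of the genes tested, where the median gene had 0.46.

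Arg1, which breaks down arginine and limits nitric oxide synthesis, was low and also spread widely, with an SD within groups of 0.88. It ranged from 5.24 to 11.5 CPM in hub control mice (median 6.84) and from 2.33 to 15.2 CPM in wheel mice (median 5.69) with PBS liposomes. With clodronate liposomes the hub control mice had 4.15, 9.83, 13.6, 16.2 and 20.1 CPM, and the wheel mice 1.64, 3.59, 4.26, 13.2 and 18.9 CPM. In this last group the 3 low mice were the lymphocyte-rich ones. Wheel against hub gave -0.81 with clodronate liposomes (SE 0.52, adjusted p = 0.65 by limma) and 0.44 without the lymphocyte-rich samples. That left only the wheel mice with 13.2 and 18.9 CPM in this group. Their skin scores, described below, were 7.64 and 8.32, against 6.54, 1.94 and 2.33 in the lymphocyte-rich mice of the group. Lymphocyte and skin content cannot be told apart in this change of direction. Clodronate against PBS gave 0.55 in hub control mice (SE 0.50, adjusted p = 0.86) and 0.06 in wheel mice (SE 0.50, adjusted p = 0.98).

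Chil3 was at the floor in most mice, where reads may be hidden. It was read at 11.8 and 11.7 CPM in hub control mice 1 and 6 and at 13.6 CPM in wheel mouse 4, all with PBS liposomes, and at 1.05 CPM in wheel mouse 3 with PBS liposomes. The other 18 mice, all 10 with clodronate liposomes among them, were at the floor. The share above the floor was 4 of 12 mice with PBS and 0 of 10 with clodronate liposomes, which Fisher's exact test, added after the values were seen, did not separate (two-sided p = 0.096). The 3 mice with clear Chil3 also had the 3 highest scores of the series for 8 dividing cell genes, 4.31, 4.23 and 4.36, ahead of 4.15 in the next mouse. The part of dividing cells in the Chil3 values was not tested. The related genes Chil4 and Retnlb were at the floor in all 22 mice.

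Mgl2, a lectin that marks type 2 dendritic cells and alternatively activated macrophages, came closest to the threshold. With PBS liposomes it ranged from 6.15 to 24.6 CPM in hub control mice (median 15.9) and from 8.87 to 30.0 CPM in wheel mice (median 23.6). With clodronate liposomes the hub control mice had 9.57, 11.2, 15.0, 15.1 and 27.7 CPM. The wheel mice with clodronate liposomes had 3.77, 7.78, 8.08, 10.9 and 11.4 CPM, so 3 of these 5 mice lay below every wheel mouse with PBS liposomes while the groups overlapped. Clodronate against PBS in wheel mice gave a difference of -1.22 in log2(CPM + 1) (SE 0.36, unadjusted p = 0.0026, adjusted p = 0.21 by limma), and an exact permutation p of 0.013. In hub control mice the same difference was -0.02 (SE 0.36, adjusted p = 0.99). The test of the difference between these effects, the interaction, gave -1.20 (SE 0.51, unadjusted p = 0.028, adjusted p = 0.63). The wheel against the hub with clodronate liposomes gave -0.82 (SE 0.38, unadjusted p = 0.041, adjusted p = 0.44, exact permutation p = 0.040), and with PBS liposomes 0.38 (SE 0.35, adjusted p = 0.99). These comparisons share the wheel mice with clodronate liposomes, of which 3 of 5 were lymphocyte-rich. Without the 5 lymphocyte-rich samples the difference was -0.89 for clodronate in wheel mice (adjusted p = 0.58) and -0.59 for the wheel with clodronate liposomes (adjusted p = 0.94). The adipocyte score was also lowest in this group (mean 9.62, against 9.89 to 10.12 in the others), and with that score as a covariate the 2 differences were -0.89 and -0.62. The part of tissue content in the Mgl2 values was not tested further.

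Clec10a, the paired lectin next to Mgl2 on chromosome 11, varied less between mice. It ranged from 30.2 to 53.9 CPM in hub control mice (median 40.8) and from 33.5 to 55.7 CPM in wheel mice (median 45.3) with PBS liposomes. With clodronate liposomes the values were 20.8, 25.0, 30.8, 42.6 and 47.1 CPM in hub control mice and 13.6, 33.6, 38.3, 40.9 and 58.3 CPM in wheel mice. The lowest values of the series were in mice with clodronate liposomes, but all groups overlapped. Clodronate against PBS over both activities gave -0.34 (SE 0.19, adjusted p = 0.55 by limma), with -0.33 in hub control mice and -0.36 in wheel mice. The ratio of Clec10a to Mgl2, taken within each mouse, had medians of 2.43 and 2.13 in hub control and wheel mice with PBS liposomes and of 2.17 and 5.06 with clodronate liposomes, with ranges that overlapped in all groups. In wheel mice with clodronate liposomes the highest ratios were those of the lymphocyte-rich mice. These had Clec10a of 40.9, 33.6 and 58.3 CPM with Mgl2 of 8.08, 3.77 and 10.9 CPM. The remaining mice of the group had 38.3 and 13.6 CPM with 11.4 and 7.78 CPM. The part of lymphocyte content in this ratio was not tested. The last 400 bases of Clec10a and Mgl2 matched over 119 bases at 94.1% identity, under the 97% taken as a near-identical copy.

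The wider macrophage list was read beside these lectins. Of 10 macrophage genes such as Adgre1, Csf1r and C1qa, 0 were called with clodronate over both activities, 9 were lower and 1 was higher, with a median change of -0.18 against -0.04 for all genes. In hub control mice 9 were lower and 1 higher, with a median of -0.24 (all genes -0.10). In wheel mice 7 were lower and 3 higher, with a median of -0.18 (all genes 0.00). Whether the lectins changed more than this list was not tested. The macrophage score ranged from 4.07 to 5.48 in mice with PBS liposomes and from 3.90 to 5.08 with clodronate liposomes.

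Ear2 was close to the floor. With PBS liposomes it ranged from 1.11 to 3.14 CPM in hub control mice (median 1.43) and from 1.39 to 3.44 CPM in wheel mice (median 2.59). With clodronate liposomes, 3 mice of each activity were at the floor, and the others had 2.87 and 3.40 CPM in hub control mice and 1.39 and 1.70 CPM in wheel mice. All 12 mice with PBS liposomes were above the floor, against 4 of 10 with clodronate liposomes, and Fisher's exact test, added after the values were seen, gave a two-sided p of 0.0028. The test was picked from the same values, and a level of 1.11 CPM counts in it as much as 3.44 CPM. The share of all genes with such a p was not computed, so no effect of clodronate is drawn from it. On the log2(CPM + 1) scale clodronate against PBS gave -0.61 in wheel mice (SE 0.25, unadjusted p = 0.020, adjusted p = 0.33 by limma, exact permutation p = 0.017) and 0.04 in hub control mice (SE 0.25, adjusted p = 0.99). These values lie next to the floor, which hides differences below it. Its 3′ end had no copy at 97% identity or above. Ear-ps2 matched it at 96.3% over 216 bases and Ear1 at 96.25% over 400 bases, and Ear1 was at the floor in all 22 mice.

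Siglecf was read above the floor in 1 mouse, hub control mouse 1 with PBS liposomes, at 1.17 CPM. Defining genes of eosinophils were as scarce: Epx, Ear1, Ear6 and Ear10 were at the floor in all mice, Prg2 and Ccr3 were above it in 3 mice each, and Il5ra in 1 mouse. Ccl11, a chemokine that draws eosinophils and is made by stromal cells, was the only gene of the 10 on this list to be tested, at a mean of 13.4 CPM. Its difference was -0.43 for clodronate (SE 0.28, adjusted p = 0.61 by limma) and -0.14 for the wheel (SE 0.28, adjusted p = 0.92), both over the other factor.

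Most cytokines that drive this program were at the floor, under which reads may be hidden. Il4, Il13, Il5, Il9 and Il25 were at the floor in all 22 mice, and Csf2 was above it in 1. Of the 8 ligands and alarmins listed, the alarmin Tslp and the growth factor Areg were tested. Tslp gave -0.49 for clodronate (SE 0.28, adjusted p = 0.55 by limma) and 0.44 for the wheel (SE 0.28, adjusted p = 0.70), and Areg gave -0.76 (SE 0.56, adjusted p = 0.67) and -0.25 (SE 0.56, adjusted p = 0.93). The receiving side was present. The receptor Il4ra had a mean of 28.7 CPM, its partner Il13ra1 17.8 CPM and the transcription factor Stat6 29.0 CPM. Of 18 receptor and signaling genes 16 were tested, and 0 were called in any comparison. With clodronate 6 were lower and 10 higher (median 0.06, all genes -0.04), and with the wheel 4 were lower and 12 higher (median 0.15, all genes -0.04). The highest value with the wheel was that of Il7r, part of the receptors for IL-7 and TSLP, at 1.65 (SE 0.63, adjusted p = 0.59). Il7r reached 117 CPM in the lymphocyte-rich samples and had a highest value of 14.6 CPM among the other wheel mice. The lowest values of this list were -0.30 for Il13ra1 with the wheel (adjusted p = 0.73) and -0.43 for the kinase Jak3 with clodronate (adjusted p = 0.63).

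Among 24 other genes of alternative activation, such as Mrc1, Cd163, Folr2 and Ccl8, 22 were tested and 0 were called in any comparison. With clodronate 16 were lower and 6 higher, with a median of -0.24 against -0.04 for all genes. Of the 22, 4 had an unadjusted p under 0.05 by limma, against 10.4% of all genes. Other tissue lists also moved: 9 of 9 adipocyte genes were lower (median -0.36). Of 8 fibroblast genes 7 were lower and 1 higher (median -0.20), and 8 of 8 muscle genes were higher. Whether the alternative activation list changed more than these was not tested. Fn1, which encodes fibronectin, had the lowest adjusted p of the alternative activation list, with -0.49 (SE 0.12, adjusted p = 0.084 by limma), and is named here after its values were seen. Cd209d, a lectin related to DC-SIGN, had the lowest difference of the list, -0.79 (SE 0.34, unadjusted p = 0.028, adjusted p = 0.40 by limma), with medians of 12.7 CPM in mice with PBS and 6.23 CPM with clodronate liposomes. The highest value on the other side was the chemokine Ccl17, at 0.28 (SE 0.15, adjusted p = 0.54). With the wheel 11 were lower and 11 higher. Irf4, a transcription factor needed for alternative activation that B and T cells also use, had the largest difference of the list at 1.49 (SE 0.31, unadjusted p = 6.7e-05, adjusted p = 0.34). Irf4 had a median of 4.94 CPM in hub control mice, with a highest value of 10.0 CPM, and of 21.0 CPM in wheel mice. Without the lymphocyte-rich samples the medians were 4.67 CPM in 10 hub control mice and 17.5 CPM in 7 wheel mice. Cd209d gave -0.55 with the wheel (adjusted p = 0.69).

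Markers of cells that respond to IL-33 were read in part. Of 9 genes of type 2 innate lymphoid cells and T helper 2 cells, 5 were tested and 0 called. With clodronate 1 was lower and 4 higher, and with the wheel 3 were lower and 2 higher. Klrg1, Ptgdr2, Il13 and Il5 were at the floor in all mice. The tested genes were Gata3 (mean 146 CPM), Rora (122 CPM), Areg (10.9 CPM), Icos (4.78 CPM) and Il17rb (1.59 CPM). Which cells of the tissue made them was not tested. The T cell gene Icos of this list gave 0.40 with clodronate and 0.92 with the wheel (adjusted p = 0.79 and 0.62 by limma), and Rora -0.39 with the wheel (adjusted p = 0.70). With the wheel 12 of 12 lymphocyte genes were also higher (median 1.34, 0 called), and 4 of the 5 lymphocyte-rich samples were from wheel mice. Their part in the Icos values was not tested. The mast cell proteases Cpa3 and Mcpt4 were above the floor in every mouse, with means of 13.1 and 10.3 CPM, as was the stem cell factor receptor Kit, with 21.3 CPM. The tryptase Tpsab1 and the IgE receptor subunit Fcer1a were at the floor in 21 mice each, and the subunit Ms4a2 in all 22. Of 9 mast cell genes 6 were tested and 0 called, with 5 lower and 1 higher with clodronate and 2 lower and 4 higher with the wheel. Cpa3 gave -0.41 with clodronate (SE 0.21, adjusted p = 0.50) and Mcpt4 -0.27 with the wheel (SE 0.27, adjusted p = 0.81), while Kit gave 0.04 and 0.34 (adjusted p = 0.97 and 0.76).

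The levels of the members in single mice were set against each other after removing the group means. Of 21 pairs of members 15 had a positive Pearson r, and none passed an adjusted p of 0.05 in a family of 119 relations that also held 14 cell marker scores (100000 permutations of the mice within groups). The highest pair was Retnla with Mgl2, with r = 0.57 (rho = 0.59, permutation p = 0.014 and 0.0063, adjusted p = 0.26 and 0.12), which was 0.45 without the 2 mice farthest from the median and 0.49 without the lymphocyte-rich samples. Retnla with Ear2 had r = 0.44, Retnla with Clec10a 0.43, and Mgl2 with Clec10a 0.39. Arg1 had r of 0.43 with Il33, 0.19 with Retnla, -0.08 with Mgl2 and -0.09 with Clec10a, and Ear2 had 0.18 with Mgl2 and -0.03 with Clec10a. Il33 and its receptor Il1rl1 had r = 0.44 (rho = 0.43, permutation p = 0.084 and 0.069). Among the marker scores the lowest p was for Il33 with skeletal muscle genes (r = 0.64, rho = 0.63, permutation p = 0.0017 and 0.0018, adjusted p = 0.20 and 0.12), where r stayed at 0.62 without the 2 farthest mice. Arg1 had r = -0.68 with endothelial genes (rho = -0.70, permutation p = 0.0066 and 0.0048, adjusted p = 0.20 and 0.12), with -0.70 without the 2 farthest mice. Without the lymphocyte-rich samples it was -0.60 (permutation p = 0.051, adjusted p = 0.37). This relation passed when the group means were kept in (adjusted p = 0.024), a setting that also holds differences between groups. Arg1 with epithelial genes had r = 0.61 (rho = 0.63, permutation p = 0.0059 and 0.0050, adjusted p = 0.20 and 0.12), with 0.65 without the 2 farthest mice and 0.42 without the lymphocyte-rich samples. Clec10a with fibroblast genes had r = 0.48 (rho = 0.60, permutation p = 0.0059 and 0.0030, adjusted p = 0.20 and 0.12). Clec10a with macrophage genes had r = 0.55 (rho = 0.49, permutation p = 0.017 and 0.033, adjusted p = 0.26 and 0.34), and 0.34 without the 2 farthest mice. The other members had r with macrophage genes of 0.21 for Mgl2, -0.02 for Ear2 and -0.07 for Retnla. It was -0.09 for Il1rl1, -0.33 for Il33 and -0.49 for Arg1. Clec10a also had r = 0.57 with endothelial genes. Retnla had r = 0.55 with fibroblast genes, and 0.82 without the lymphocyte-rich samples.

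**Figure D3:**
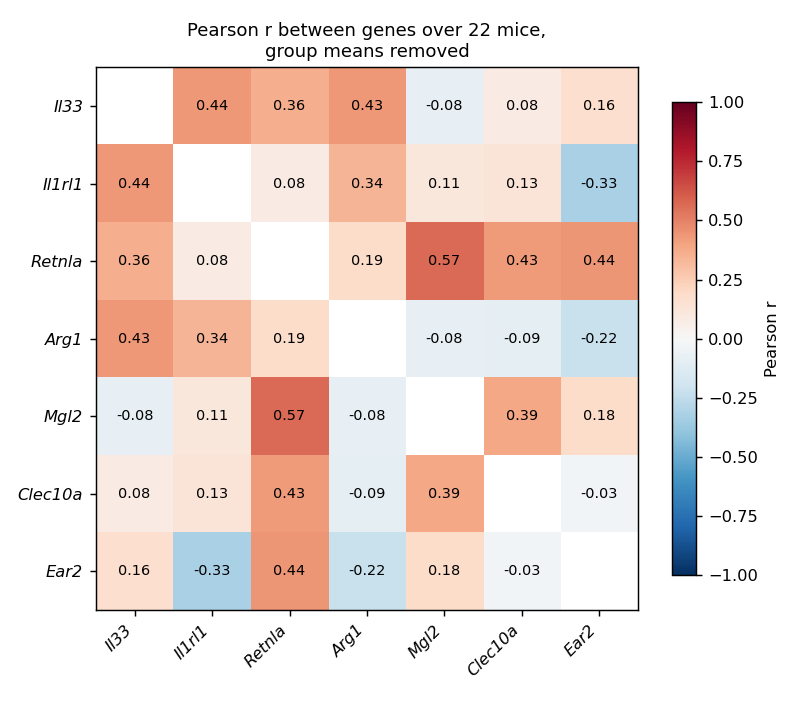
Pearson r of log2(CPM + 1) between the 7 tested genes over 22 mice after the mean of each group was removed; red is positive and blue negative. The highest value is 0.57 for Retnla with Mgl2 and the lowest -0.33 for Il1rl1 with Ear2, and no pair passed the adjusted threshold.

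The genes nearest to each member over the 22 mice, among the 15138 tested, were listed as a description. For Retnla they were Cd209f, a lectin of tissue macrophages (r = 0.83), and the ferritin receptor Scara5 of stromal cells (r = 0.81). Clec10a had Lpar1 (r = 0.86) and Cdc37l1 (r = 0.79), and Mgl2 had Lztfl1 (r = 0.80) and Plod3 (r = 0.76). Arg1 had Klf5, a transcription factor of epithelia (r = 0.88), and the epithelial polarity gene Celsr1 (r = 0.86). Il33 had Lce3c, a protein of the cornified envelope of skin (r = 0.84), and Aqp3, a water and glycerol channel of keratinocytes (r = 0.83). Il1rl1 had Pigf (r = 0.82) and Ttc9 (r = 0.75), and Ear2 had Lrrc4 (r = 0.81) and Foxj1 (r = 0.77). Chil3, which had too few mice above the floor for the rule, was nearest to Chst5 (r = 0.95). The points share libraries, and r depends on the mice with the highest and lowest levels.

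Because the genes nearest to Il33 were those of skin, a score of 8 epidermal genes (Krt1, Krt10, Lor, Krtdap, Sbsn, Calml3, Dsg1a and Krt77) was computed after the values were seen. Its relations to the members are given with no test, and it also entered limma as a covariate. The samples fell into 11 with a score of 1.76 to 4.51 and 11 with a score of 6.54 to 9.37, and each of the 4 groups had samples in both. Arg1 had a median of 4.54 CPM (1.64 to 9.83) in the samples with the lower and of 13.2 CPM (3.59 to 20.1) in those with the higher skin score. Il33 had medians of 3.40 CPM (1 to 9.16) and 10.6 CPM (2.79 to 27.2). The score was made because skin genes followed Il33 in these same mice, so this difference in Il33 gives no separate evidence. The medians of the macrophage lectin Clec10a were 33.6 and 42.6 CPM, those of Mgl2 15.0 and 11.4 CPM, and those of Retnla 212 and 213 CPM. Within the 11 samples of higher skin score, Arg1 followed the score with r = 0.73 (rho = 0.82), which was 0.68 without the 2 samples farthest from the median score. Il33 had r = 0.33 there (rho = 0.35). In the 11 samples of lower score r was 0.35 for Arg1 (rho = 0) and -0.50 for Il33 (rho = -0.43). The 5 lymphocyte-rich samples had a narrow range of Il33, from 6.34 to 9.16 CPM. With the skin score as a covariate, the difference in Il33 between wheel and hub mice with clodronate liposomes was 1.33 (adjusted p = 0.28 by limma), and with both the skin and lymphocyte scores it was 1.08 (adjusted p = 0.87). The part of skin in these levels was not tested further.

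**Figure D4:**
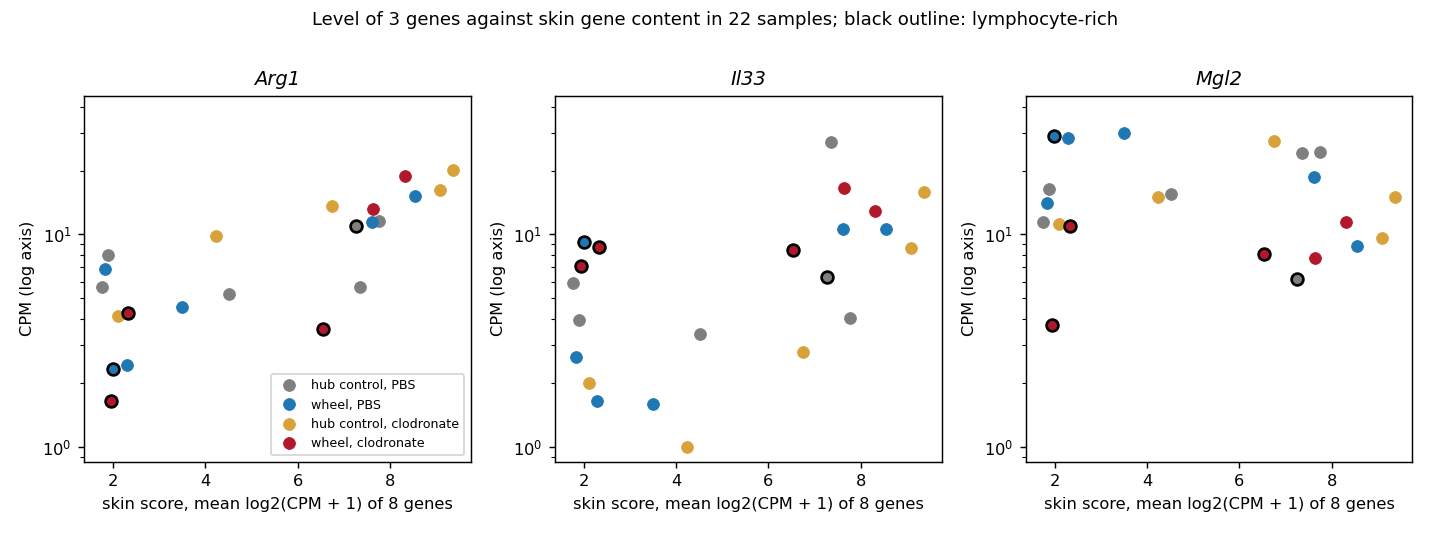
CPM of Arg1, Il33 and Mgl2 on log axes against the skin score (mean log2(CPM + 1) of 8 epidermal genes) in 22 samples, coloured by group, with black outlines on the lymphocyte-rich samples. Arg1 had a median of 13.2 CPM in the 11 samples at the right and 4.54 CPM in the 11 at the left, while Mgl2 had medians of 11.4 and 15.0 CPM.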

How the data were processed

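Total RNA of the whole mammary tissue of 22 mice was sequenced from transcript 3′ ends (QuantSeq 3′ FWD), and the deposited signal is CPM per gene and mouse, made by the authors by mapping to the RefSeq mouse genome and raised to 1 wherever it was smaller. The submitters' processing notes name STAR 2.5.3a and GRCm38. The deposited values above the floor were whole multiples of what 1 read is worth, within a tolerance of 0.1 read, which gave the depth (13256467 to 20484578 reads, median 16293026). Read numbers under the floor cannot be recovered, and no count model was fitted. Of the total, 35.4% to 42.6% lay in 4 rows that name no gene, which were left out. This share was 41.4% to 42.6% in wheel mice with clodronate liposomes and 36.1% to 41.5% in wheel mice with PBS liposomes. CPM is scaled to a total that holds these rows. With scaling to reads in genes, 0 members instead of 1 had an unadjusted p under 0.05 by limma for the wheel with clodronate liposomes. For the wheel with PBS liposomes it was 1 instead of 0.

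Groups were taken from the sample labels. Where a symbol had several rows (106 symbols), only its most abundant row entered. Genes above 1 CPM in at least 5 mice (15138) entered the fit by limma 3.58.1, run in R 4.3.3, on log2(CPM + 1), a scale that understates changes near the floor, with 4 group means, a variance trend and Benjamini-Hochberg adjustment. On simulated libraries for the wheel against the hub with PBS liposomes, the step recovered 93.5% of 200 genes given a log2 change of 1.5 among 19160 genes, with 10 false calls. The simulation gave every gene the same dispersion, changed only genes with a mean above 5 CPM and held no differences in tissue content. It therefore does not give the power for members with a wide spread between mice or a level near the floor. Scores are means of log2(CPM + 1). Permutations and Fisher tests were run in Python 3.11.15 with scipy 1.17.1. The exact permutation used 924 splits for the 2 groups with PBS liposomes, 252 with clodronate liposomes and 462 between liposomes.

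The 9 members and all gene lists were chosen with earlier results of these data known. Named genes were the members, the gene of each type 2 list with the highest and the lowest change in the 2 averaged comparisons, and the 2 genes with the highest Pearson r to each tested member. The skin list, the Fisher tests and the genes nearest to Chil3 were added after the values were seen. Alternatives were other pseudocounts (none, 0.1 and 5), filters (none, a mean of at least 5 CPM) and scalings, no variance trend, only the groups compared, the replicate number as a block, tissue scores as covariates, the lymphocyte-rich mice left out, and each mouse left out. Copies of the members were sought by blastn in the last 400 bases of GENCODE M21 transcripts.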

Additional observations from a re-analysis of the deposited data

Results flagged for a closer look

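In each group of mice the highest or lowest level of a member was set against the others by Dixon's ratio. Of 31 groups whose values varied, 4 had a mouse apart from the rest, where chance flags about 1 in 20 groups. That rate does not hold where the other mice sit at or next to the floor, as for Chil3 and Siglecf. Retnla was 45.1 CPM in wheel mouse 4 with PBS liposomes, far below the next mouse of its group at 192 CPM. The same mouse had 13.6 CPM of Chil3, where the next had 1.05 CPM. Il33 was 27.2 CPM in hub control mouse 3 with PBS liposomes, against 6.34 CPM in the next mouse. Siglecf was 1.17 CPM in hub control mouse 1 with PBS liposomes and at the floor in the others.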

How the results depend on the processing

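Of 735 values of the tested members under 16 alternatives, the exact permutation test among them, 700 kept their direction and side of the threshold, 31 changed direction, and 4 had an unadjusted p under 0.05 by the exact permutation test where the adjusted p of limma was not. No member passed an adjusted p under any alternative or with any mouse left out. The differences that changed direction were at most 0.81 in size, none had passed the test, and the cause was not tested. Floor values limit Ear2, Chil3 and Siglecf.

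Without the lymphocyte-rich samples, the wheel gave -0.00683 for Retnla with PBS liposomes, 0.44 for Arg1 and -0.45 for Clec10a with clodronate liposomes, and 0.22 for Arg1, -0.19 for Clec10a and -0.065 for Ear2 over both liposomes. Clodronate then gave 0.082 for Retnla in wheel mice and 0.12 over both activities, and the interaction 0.45 for Arg1. With the lymphocyte score as a covariate, Clec10a had -0.21 for the wheel with clodronate liposomes and -0.057 over both liposomes, Ear2 -0.020 over both liposomes, and Arg1 0.30 for the interaction. With the skin and lymphocyte scores together these were -0.22, -0.051, -0.018 and 0.059, and Il33 had -0.093 for clodronate over both activities. With the skin score alone, clodronate gave -0.0087 for Retnla in hub control mice, -0.19 for Arg1 in wheel mice and -0.0049 for Il33 over both activities. With the adipocyte score, clodronate gave 0.14 for Mgl2 in hub control mice, -0.26 for Arg1 in wheel mice, and 0.063 for Retnla and -0.087 for Il33 over both activities. Upper-quartile scaling gave 0.051 and scaling to reads in genes 0.00468 for Mgl2 with clodronate in hub control mice, and the latter 0.015 for Clec10a in the interaction.

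The count of genes called over the whole table depended on the setting more than the members did. For the wheel with clodronate liposomes (1 gene) it was 3 with no filter, 12 without the lymphocyte-rich samples, and 0 with each of the 4 covariate settings, in a fit of the compared groups alone and with the filter at a mean of 5 CPM. For clodronate in wheel mice (1 gene) it was 3 with a pseudocount of 5, 4 with no filter, 2 with each of the other scalings and with no variance trend, 14 without the lymphocyte-rich samples, 6 with the skin score, and 0 with the lymphocyte, adipocyte or joint scores, in a fit of the compared groups alone and with the filter at a mean of 5 CPM. For clodronate over both activities (31 genes) it was 54 with the filter at a mean of 5 CPM, 18 with upper-quartile scaling, 15 with scaling to reads in genes, 20 with no variance trend, and 0 without the lymphocyte-rich samples or with the adipocyte score. With no filter it was 2 for the wheel over both liposomes and 2 for the interaction. With the group means kept in, 1 of the 119 relations passed the adjusted threshold.

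The labels do not say whether replicate numbers pair the mice. Over 31 pairs of mice with the same number, deviations from the group means had a mean correlation of 0.0475 (-0.388 to 0.517), and 12 were over 0.1. Pairs with different numbers were not computed, so these values cannot decide whether the numbers pair the mice. With the replicate number as a block, clodronate gave -1.16 for Mgl2 (adjusted p = 0.34 by limma) and -0.67 for Ear2 (adjusted p = 0.39) in wheel mice, 0.039 for Mgl2 and -0.017 for Ear2 in hub control mice, and -0.015 for Arg1 in wheel mice. Under the block 0 genes were called for the wheel with clodronate liposomes, 0 for clodronate in wheel mice and 11 for clodronate over both activities.

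With each mouse left out in turn (22 fits), 732 of 770 member values kept their direction and 38 changed it. For the wheel, the range was -0.11 to 0.58 for Retnla and -0.57 to 0.020 for Il33 with PBS liposomes, -0.12 to 0.39 for Clec10a with clodronate liposomes, and -0.29 to 0.070 for Retnla, -0.0084 to 0.24 for Clec10a and -0.0079 to 0.13 for Ear2 over both liposomes. For clodronate it was -0.079 to 0.48 for Retnla, -0.25 to 0.12 for Mgl2 and -0.14 to 0.17 for Ear2 in hub control mice, -0.86 to 0.024 for Retnla and -0.31 to 0.42 for Arg1 in wheel mice, and -0.34 to 0.11 for Retnla and -0.033 to 0.17 for Il1rl1 over both activities. For the interaction it was -0.22 to 0.29 for Clec10a. Genes called ranged from 0 to 236 for the wheel with clodronate liposomes (236 without wheel mouse 2 and 118 without wheel mouse 1), from 0 to 38 for clodronate in hub control mice (38 without clodronate mouse 1), from 0 to 51 in wheel mice (51 without clodronate mouse 2) and from 9 to 146 over both activities (146 without hub control clodronate mouse 1).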
